A study of Mus musculus with 24 samples.

Results

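The 8 genes encode proteases, protease inhibitors and a receptor, and were followed through the maturation of mouse bone marrow eosinophils. They are the proteases Mmp9, Mmp25, Adam8 and Adam19, the protease inhibitors Timp2, Serpinb2 and Serpina3g, and Plaur, the receptor of the urokinase plasminogen activator. They form a set of 8 chosen by name out of 24982 gene symbols counted, and all 8 were among the 12743 symbols with enough counts to be tested. The set was selected on the levels of Serpinb2, Mmp9 and Adam19, which were higher in later stages than in earlier ones. Levels along the stages are therefore given as a description and were not tested for these 8 genes. The name "secreted proteases and serpins" covers them only in part. Mmp25 and Plaur are anchored in the membrane by a lipid tail, and Adam8 and Adam19 span the membrane. Serpinb2 stays largely inside the cell, and Serpina3g inhibits proteases inside mouse lymphocytes. Timp2 and Plaur are neither proteases nor serpins.

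A leukocyte that leaves the bone marrow passes through vessel walls and matrix, and it carries enzymes for this at its surface and in its granules. Matrix metalloproteinases (Mmp) cut collagens, gelatin and other matrix proteins and are held in check by the tissue inhibitors of metalloproteinases (Timp). The Adam proteases shed the outer parts of adhesion molecules and receptors from the cell surface. Plaur holds urokinase at the cell surface, where urokinase turns plasminogen into plasmin, and Serpinb2 inhibits urokinase, as serpins do in general, by trapping the protease in a covalent complex.

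Each library came from eosinophils of 1 of 4 successive stages of maturation, I to IV, sorted from the marrow of C57BL/6 mice (written CB57BL/6 in the labels). In the IL-33 groups the mice had received 400 ng of recombinant mouse interleukin 33, an alarm cytokine that drives eosinophilia, into the peritoneum every day for 7 days. In the steady state groups they had not, and the labels name no injection of vehicle. Every sample was a pool of 3 mice, and from all samples cells bearing CD45R, NK1.1, CD90.2 or Ly6G had been depleted before the sort. The labelled sort purity is 95% or above. There were 3 libraries in each of the 8 groups and 24 in all, and the design text calls the triplicates biological. The labels used here give neither age nor sex of the mice.

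Total gene counts per library lay between 8335138 and 14909453. Reads assigned to no gene made up 9.19% to 16.6% of the counted reads in IL-33 libraries and 17.8% to 30.5% in steady state libraries. The 4 steady state libraries numbered 3 stood apart. In them the stress-responsive gene Jun had 3331 to 5018 CPM (counts scaled to the size of each library), where the remaining 20 libraries had 875 to 2142 CPM. Atf3, another such gene, had 164.6 to 1063 CPM in these 4 and 1.33 to 52.0 CPM elsewhere. All 7 eosinophil markers looked up were detected in every group: Siglecf averaged 271 to 710 CPM in the IL-33 groups and 286 to 479 CPM in the steady state groups, and Il5ra 103 to 175 CPM and 147 to 332 CPM. The granule gene Epx averaged 5800 CPM in IL-33 libraries of stage IV, against 21.8 CPM in the steady state libraries of that stage. Genes that mark neutrophils were also present in all 24 libraries, with a summed level over 16 genes of 1656 to 11820 CPM under IL-33 and 3064 to 32730 CPM at steady state, although Ly6G-bearing cells had been removed.

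The upstream sequences of 4 of the genes that hold a short sequence motif of a stress- or cytokine-responsive factor family are shown. That of Mmp25, with an NF-kB match 88 bases before its start, is not shown. A RefSeq start was available on GRCm38.p6 for 7 of the 8 genes (10 starts; Mmp9 had no entry), and the 250 bases before each start were searched on both strands. The AP-1 motif TGANTCA, bound by Jun, Fos and Atf proteins, was found before 4 of the 10 starts, in 3 genes (Serpinb2, Plaur and Adam19). It was found before 6.75% of all 32851 RefSeq starts. In Serpinb2 the matches 94 and 181 bases before its starts are 1 and the same site, counted at each start because the searched sequences overlap. The NF-kB motif was found before 3 of the 10 starts, in 3 genes (Adam19, Serpina3g and Mmp25), and before 3.9% of all starts. The GATA motif AGATAA was found before 1 of the 10 starts, the second of Serpinb2, and before 9.99% of all starts. Serpinb2 and Adam19 had more than 1 start, and the sequence before a single start is shown for each. Capitals mark the AP-1 motif 94 bases before this start of Serpinb2 (chr1:107511173-107511422, plus strand), 69 bases before that of Plaur (chr7:24462233-24462482, plus strand) and 131 bases before that of Adam19 (chr11:46055734-46055983, plus strand). They also mark the NF-kB motif 111 bases before the same start of Adam19 and 85 bases before that of Serpina3g (chr12:104235897-104236146, plus strand). In Adam19 both motifs lie apart from each other, and none of these matches was tested for binding.
Serpinb2: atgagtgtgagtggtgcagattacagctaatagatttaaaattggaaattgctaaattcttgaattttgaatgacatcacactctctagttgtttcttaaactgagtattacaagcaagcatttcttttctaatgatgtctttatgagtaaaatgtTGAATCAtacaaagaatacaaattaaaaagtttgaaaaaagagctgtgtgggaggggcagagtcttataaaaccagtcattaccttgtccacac
Plaur: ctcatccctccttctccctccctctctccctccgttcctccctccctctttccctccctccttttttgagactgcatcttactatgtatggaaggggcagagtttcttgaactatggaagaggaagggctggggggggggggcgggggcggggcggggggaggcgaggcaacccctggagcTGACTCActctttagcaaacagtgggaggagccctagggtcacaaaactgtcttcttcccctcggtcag
Adam19: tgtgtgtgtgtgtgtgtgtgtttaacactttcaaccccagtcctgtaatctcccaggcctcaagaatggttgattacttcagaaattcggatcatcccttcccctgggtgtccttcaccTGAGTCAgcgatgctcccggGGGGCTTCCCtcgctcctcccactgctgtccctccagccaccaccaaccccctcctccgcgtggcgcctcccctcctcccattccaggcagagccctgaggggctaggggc
Serpina3g: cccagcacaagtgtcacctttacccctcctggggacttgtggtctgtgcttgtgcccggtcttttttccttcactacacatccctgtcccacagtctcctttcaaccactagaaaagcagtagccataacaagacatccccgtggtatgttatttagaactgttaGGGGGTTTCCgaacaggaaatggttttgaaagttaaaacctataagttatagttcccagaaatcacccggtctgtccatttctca

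Levels along the stages separated the 8 genes into those highest late and 1 gene highest early. Under IL-33, 7 of the 8 genes had their highest group mean in stage IV, and Serpina3g had its highest in stage I. At steady state 5 genes (Serpinb2, Mmp25, Plaur, Adam8 and Timp2) had their highest mean in stage III, Mmp9 and Adam19 in stage IV, and Serpina3g again in stage I. Of the 5 genes highest in stage III at steady state, Serpinb2, Plaur and Timp2 had stage IV libraries that all lay below the stage III libraries, whereas the libraries of Mmp25 and Adam8 overlapped between these stages. These counts describe a set selected on levels along the stages, and no share over all genes is set beside them.

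**Figure D1:**
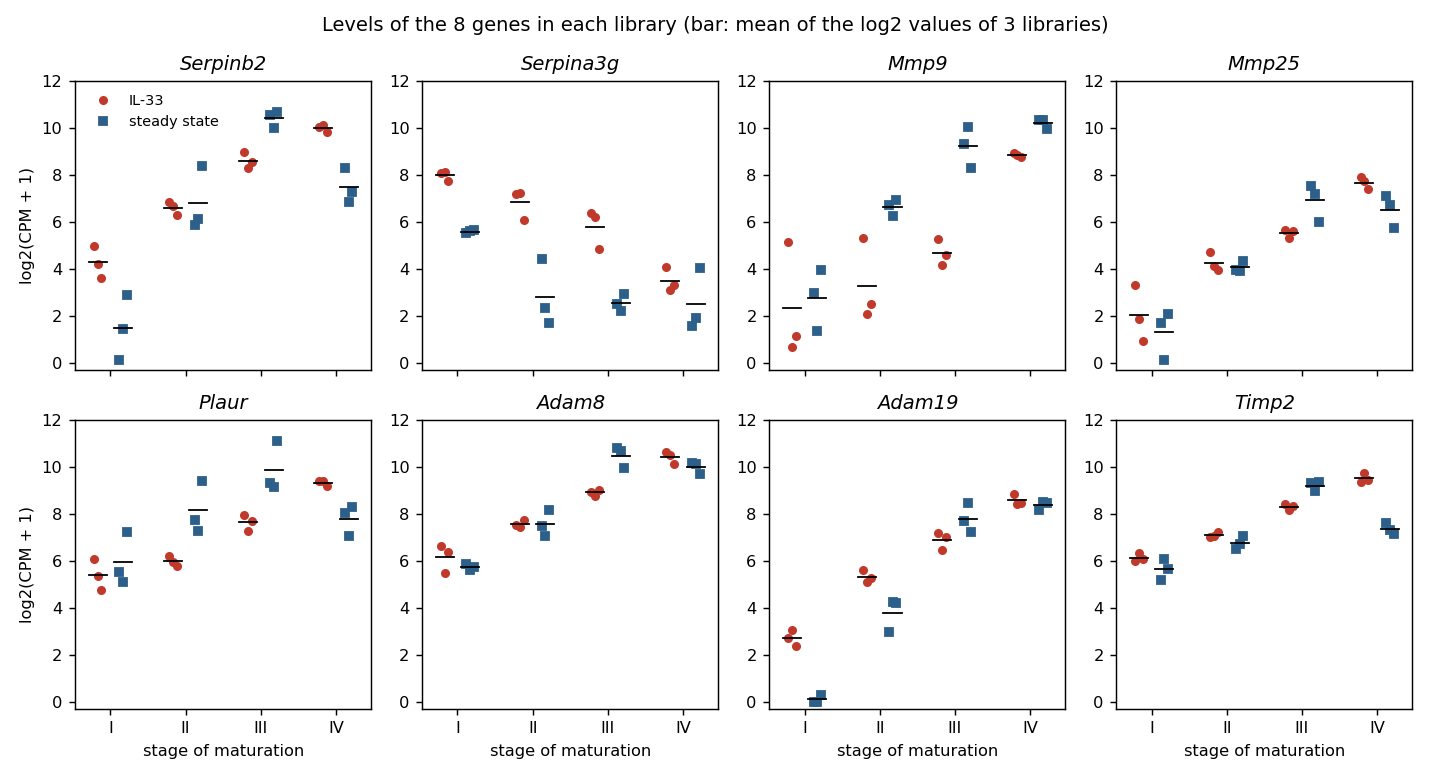
Level of each gene in every library as log2(CPM + 1), with the 4 stages on the horizontal axis, IL-33 libraries as circles, steady state libraries as squares and bars for the mean of 3 log2 values. Serpina3g is the gene that is highest in stage I, and under IL-33 the other 7 are highest in stage IV.

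**Figure D2:**
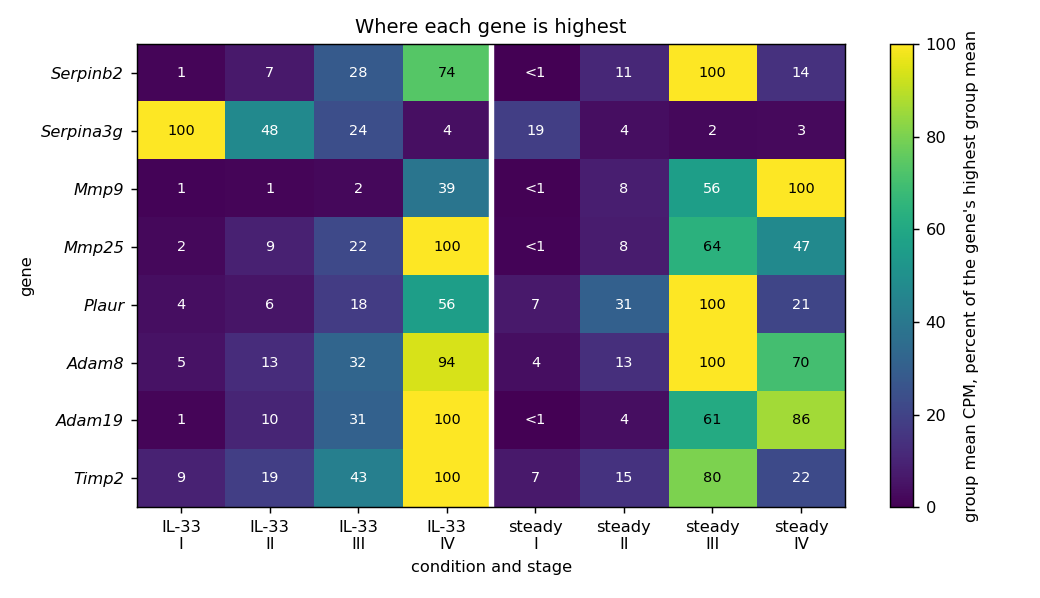
Group mean CPM of each gene as a percentage of that gene's highest group mean, with the IL-33 groups on the left and the steady state groups on the right. At steady state Serpinb2, Plaur and Timp2 stood at 14%, 21% and 22% in stage IV, while under IL-33 they stood at 74%, 56% and 100% in the same stage.

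Mmp9 (chr2:164940780-164955850, plus strand, GRCm38) encodes gelatinase B, a secreted enzyme that cuts gelatin and basement membrane collagen. Its libraries had 34.1, 0.611 and 1.19 CPM (stage I), 38.3, 3.22 and 4.64 CPM (stage II), 37.7, 16.8 and 23.1 CPM (stage III), and 487.6, 462.4 and 430.6 CPM (stage IV) under IL-33. They had 6.95, 1.53 and 14.7 CPM (stage I), 104.99, 75.97 and 120.3 CPM (stage II), 639.9, 1040 and 317.2 CPM (stage III), and 1284, 1289 and 990.7 CPM (stage IV) at steady state. Under IL-33 Mmp9 was thus low through stage III in all libraries and high in stage IV, where its mean was 17.8-fold that of stage III (460 ± 28.6 against 25.8 ± 10.7 CPM, SD, n = 3 each). At steady state its mean was already 13-fold higher in stage II than in stage I and 6.63-fold higher in stage III than in stage II. The IL-33 library numbered 1 stood apart in stages I and II, at 37.9 and 9.74 times the mean of the other 2 libraries of its group. In stage III Mmp9 was lower under IL-33 than at steady state by 4.69 on the log2 scale (a 25.8-fold difference, SE 1.05, adjusted p = 0.00145), and no library overlapped. In stages II and IV the libraries did not overlap either, yet the differences of -2.72 (SE 0.968, adjusted p = 0.0869) and -1.37 (SE 0.911, adjusted p = 0.355) did not pass. The stage IV difference passed in 2 of 14 alternative analyses, a fit of the compared libraries only (log2 -1.40, adjusted p = 0.00356) and limma-voom, another model of the same counts (adjusted p = 0.00291). The stage II difference passed in 4 of 14: without the filter on low counts (adjusted p = 0.0469), with a replicate block (adjusted p = 0.0267), with limma-voom (adjusted p = 0.000523) and without the IL-33 library numbered 1, at -4.67 (adjusted p = 0.0201). In stage I, where the libraries overlapped, the value of 0.65 (adjusted p = 0.772) became -3.09 (adjusted p = 0.0623) without the IL-33 library numbered 1 of that stage.

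Mmp25 (chr17:23628311-23645277, minus strand) encodes a metalloproteinase anchored to the membrane of leukocytes. Its libraries had 9.05, 2.62 and 0.917 CPM (stage I), 25.1, 16.3 and 14.4 CPM (stage II), 49.4, 38.9 and 48.5 CPM (stage III), and 236.7, 214.99 and 165.6 CPM (stage IV) under IL-33. They had 2.18, 0.0852 and 3.22 CPM (stage I), 14.4, 13.8 and 19.1 CPM (stage II), 183.9, 145.9 and 63.3 CPM (stage III), and 135.2, 104.9 and 52.8 CPM (stage IV) at steady state. Its mean in stage IV was 4.51-fold that of stage III under IL-33, while at steady state the mean in stage IV was 0.745 times that of stage III and the libraries overlapped. No difference between conditions passed for Mmp25: the closest was stage III, 1.52 lower on the log2 scale under IL-33 (SE 0.593, adjusted p = 0.0514) with no overlap between libraries. That value lay just outside the threshold, and it passed in 8 of 14 alternative analyses, among them the one without the steady state library numbered 3 (log2 -1.85, adjusted p = 0.0266). Its stage IV difference passed with limma-voom (log2 0.91, adjusted p = 0.024).

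Adam8 (chr7:139978932-139992562, minus strand) encodes a membrane protease of granulocytes that cuts adhesion molecules. Its libraries had 97.6, 43.9 and 82.4 CPM (stage I), 185.7, 175.3 and 212.2 CPM (stage II), 490.8, 439.9 and 520.7 CPM (stage III), and 1597, 1464 and 1121 CPM (stage IV) under IL-33. They had 56.9, 47.5 and 53.2 CPM (stage I), 180.98, 133.1 and 284.6 CPM (stage II), 1819, 1662 and 978.9 CPM (stage III), and 1167, 1123 and 833.1 CPM (stage IV) at steady state. Under IL-33 each stage was higher than the one before with no overlap, in steps of 2.56-fold, 2.53-fold and 2.88-fold. At steady state the step from stage II to stage III was 7.45-fold, and stage IV overlapped stage III. Adam8 was 3.07-fold lower under IL-33 in stage III (log2 -1.62, SE 0.289, adjusted p = 0.000172), with all IL-33 libraries below all steady state libraries. In stages I, II and IV the libraries overlapped and the test was not passed, with log2 differences of 0.51, -0.06 and 0.42, although stage I passed with limma-voom (adjusted p = 0.0356).

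Adam19 (chr11:46055992-46147343, plus strand) encodes a membrane protease of the same family, also called meltrin beta, which sheds growth factors of the neuregulin family. Its libraries had 5.54, 7.24 and 4.22 CPM (stage I), 47.6, 32.9 and 37.8 CPM (stage II), 146.7, 88.1 and 127.2 CPM (stage III), and 457.98, 343.2 and 357.9 CPM (stage IV) under IL-33. They had 0, 0 and 0.225 CPM (stage I), 6.73, 17.8 and 17.3 CPM (stage II), 206.4, 350.7 and 151.01 CPM (stage III), and 286.9, 364.1 and 349.2 CPM (stage IV) at steady state. In stage I at steady state only 3 reads were counted, all in 1 library, against 211 reads over the 3 IL-33 libraries. The ratio of IL-33 to steady state in stage I was therefore 66.5 (95% counting interval 22.5 to 325), and the test was passed (adjusted p = 9.75e-06). In stage II Adam19 was 2.82-fold higher under IL-33 (log2 1.50, SE 0.362, adjusted p = 0.0125). In stage III it was 1.96-fold lower (log2 -0.97, SE 0.349, adjusted p = 0.0362), and in stage IV the libraries overlapped (log2 0.21, adjusted p = 0.744). The libraries did not overlap between conditions in stages I, II and III. The stage III value did not pass without the steady state library numbered 2 (log2 -0.56, adjusted p = 0.253) or without the IL-33 library numbered 2 or 3 (adjusted p = 0.161 and 0.0745), and the stage II value did not without the IL-33 library numbered 1 (adjusted p = 0.0534). With library totals as the scaling stage III did not pass either (log2 -0.70, adjusted p = 0.141). In a fit of the compared libraries only, stages II and III did not pass (adjusted p = 0.0875 and 0.0583), nor did stage II with limma-voom (adjusted p = 0.0525). Antisense transcripts Gm16033 and Gm16034 overlap 8.25% and 6.75% of the exon bases of Adam19, and the library method did not mark strand, so their reads cannot be told apart there.

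Timp2 (chr11:118301069-118355740, minus strand) encodes a secreted inhibitor of metalloproteinases that also takes part in activating pro-Mmp2. Its libraries had 63.4, 79.7 and 65.7 CPM (stage I), 129.9, 132.6 and 149.9 CPM (stage II), 339.3, 290.3 and 325.03 CPM (stage III), and 656.4, 869.1 and 693.3 CPM (stage IV) under IL-33. They had 35.5, 66.1 and 49.2 CPM (stage I), 90.3, 105.1 and 131.2 CPM (stage II), 629.2, 505.1 and 648.4 CPM (stage III), and 195.3, 159.4 and 140.4 CPM (stage IV) at steady state. The spread of Timp2 within a group was largest, relative to the mean, in stage I at steady state (50.3 ± 15.3 CPM, SD, n = 3). From stage III to stage IV the 2 conditions went in opposite directions. Stage IV was 2.32-fold above stage III under IL-33 and 3.6-fold below stage III at steady state, with no overlap in either. In stage IV Timp2 was 4.48-fold higher under IL-33 (log2 2.16, SE 0.224, adjusted p = 7.16e-07), at 740 ± 114 CPM against 165 ± 27.9 CPM (SD, n = 3 each). In stage III it was 1.87-fold lower (log2 -0.90, SE 0.216, adjusted p = 0.00258). Both differences held their direction and passed in all 14 alternative analyses. In stages I and II the libraries overlapped, with log2 differences of 0.47 and 0.34 that did not pass.

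Serpinb2 (chr1:107511423-107535478, plus strand) encodes plasminogen activator inhibitor type 2, which inhibits urokinase. Its libraries had 30.7, 17.5 and 11.4 CPM (stage I), 112.5, 100.4 and 76.8 CPM (stage II), 500.1, 310.6 and 371.00 CPM (stage III), and 1062, 1114 and 902.6 CPM (stage IV) under IL-33. They had 0.0993, 1.7 and 6.37 CPM (stage I), 57.6, 69.7 and 333.6 CPM (stage II), 1516, 1017 and 1635 CPM (stage III), and 317.7, 114.4 and 154.8 CPM (stage IV) at steady state. Within steady state the highest mean was that of stage III, and its stage IV libraries all lay below its stage III libraries, by 7.1-fold in the mean. Under IL-33 each stage was higher than the one before with no overlap, by 4.86-fold, 4.08-fold and 2.61-fold. Serpinb2 was 7.07-fold higher under IL-33 in stage I (log2 2.82, SE 0.705, adjusted p = 0.0283), 3.53-fold lower in stage III (log2 -1.82, SE 0.634, adjusted p = 0.0304) and 5.24-fold higher in stage IV (log2 2.39, SE 0.647, adjusted p = 0.0169), and in these 3 stages no library overlapped. In stage II the steady state library numbered 3, at 333.6 CPM, was 5.24 times the mean of the other 2, and the difference between conditions did not pass (log2 -0.67 with it, 0.50 without the 4 steady state libraries numbered 3). The calls depended on single libraries and on the scaling and fit. On leaving out 1 library at a time, stage I did not pass without numbers 1 or 2 of either condition, stage III without IL-33 numbers 1, 2 or 3 or steady state numbers 1 or 3, and stage IV without IL-33 number 2 or steady state numbers 2 or 3, with adjusted p from 0.0505 to 0.122. Stage III did not pass with library totals as the scaling (log2 -1.52, adjusted p = 0.0598), and stage I did not in a fit of the compared libraries only (adjusted p = 0.109) or with limma-voom (adjusted p = 0.053). The 3 passing stages also passed without those 4 libraries, at log2 4.35, -1.69 and 2.20. The exons of Serpinb2 share 12.4% of their bases with Serpinb10 on the same strand, and reads there may have been counted as ambiguous.

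**Figure D3:**
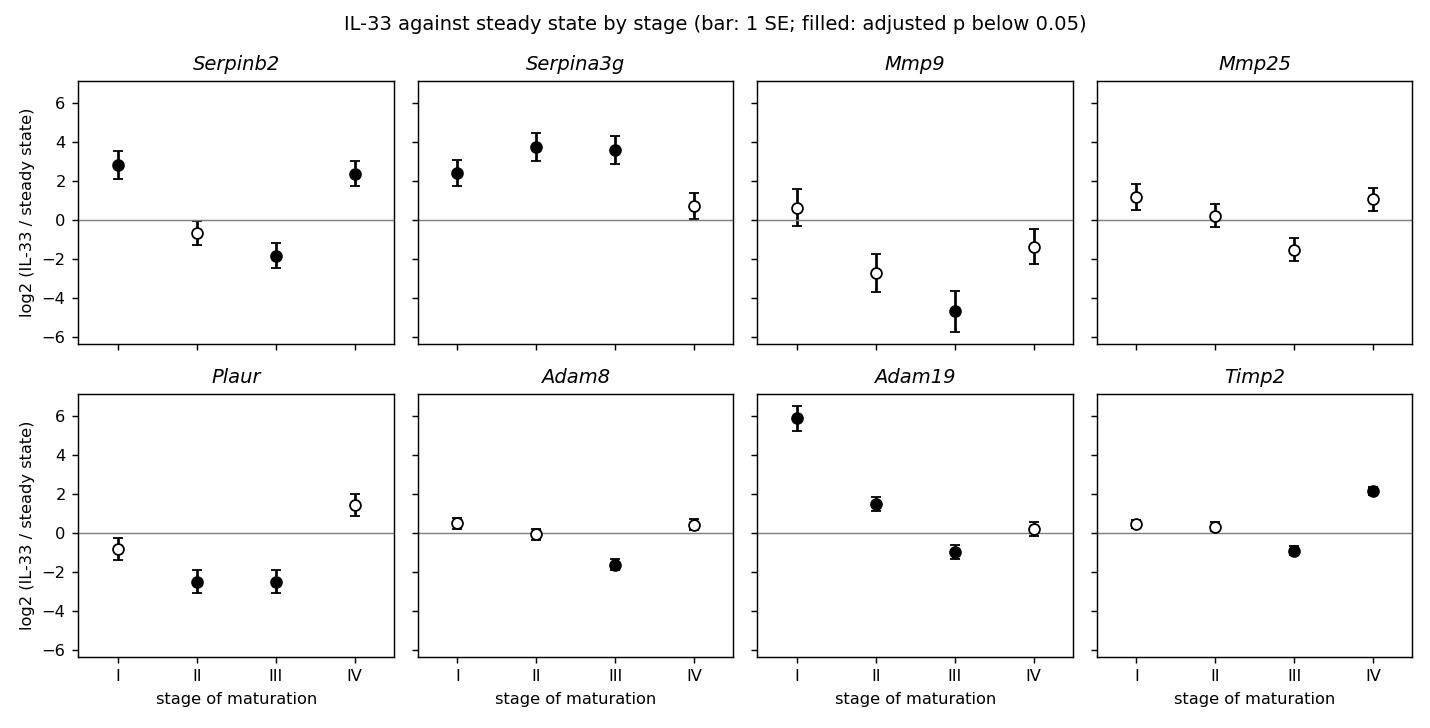
Difference between IL-33 and steady state for each gene in each stage, as a log2 fold change with 1 SE on either side, filled where the adjusted p was below 0.05. In stage III, 6 genes lie below 0 and pass (4 with library totals as the scaling), and Serpina3g is the gene above 0. The Adam19 point of stage I is a fitted value for a group with 3 reads and not a bound.

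Serpina3g (chr12:104236245-104241939, plus strand) encodes a serpin that in mouse lymphocytes inhibits cysteine cathepsins inside the cell. Its libraries had 269.4, 278.1 and 210.7 CPM (stage I), 145.7, 148.2 and 66.9 CPM (stage II), 81.3, 72.6 and 27.4 CPM (stage III), and 16.03, 7.6 and 8.91 CPM (stage IV) under IL-33. They had 44.6, 47.9 and 48.7 CPM (stage I), 20.5, 3.97 and 2.2 CPM (stage II), 4.74, 3.66 and 6.68 CPM (stage III), and 1.996, 2.77 and 15.6 CPM (stage IV) at steady state. It ran against the other 7 genes: its highest level was in stage I in both conditions, and its stage I mean was 23.3-fold its stage IV mean under IL-33 and 9.36-fold its lowest mean, that of stage III, at steady state. Serpina3g was higher under IL-33 in stage I by 5.37-fold (log2 2.43, SE 0.66, adjusted p = 0.0403), in stage II by 13.6-fold (log2 3.77, SE 0.709, adjusted p = 0.00201) and in stage III by 12-fold (log2 3.58, SE 0.715, adjusted p = 0.000518), with no overlap in any of the 3. In stage IV the libraries overlapped (log2 0.71, adjusted p = 0.534), and 1 steady state library, number 3 at 15.6 CPM, lay far above the other 2. Without the 4 libraries numbered 3 the stage IV difference was 2.14 (adjusted p = 0.0239). The stage I difference did not pass without IL-33 number 2 or 3 or steady state number 1, 2 or 3, at adjusted p from 0.067 to 0.147, or with library totals as the scaling (log2 2.24, adjusted p = 0.062), and the stage II difference was 5.29 without the steady state library numbered 1. Serpina3g belongs to a cluster of near-identical copies, among which reads may be split, so its level is uncertain.

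Plaur (chr7:24462484-24475968, plus strand) encodes the urokinase receptor, which focuses plasmin formation at the leading edge of migrating leukocytes. Its libraries had 66.1, 39.97 and 26.2 CPM (stage I), 73.3, 61.2 and 53.5 CPM (stage II), 248.7, 154.2 and 205.96 CPM (stage III), and 670.6, 668.5 and 577.8 CPM (stage IV) under IL-33. They had 44.7, 33.8 and 150.5 CPM (stage I), 214.7, 153.98 and 683.5 CPM (stage II), 638.8, 574.8 and 2202 CPM (stage III), and 262.3, 131.4 and 316.5 CPM (stage IV) at steady state. The steady state library numbered 3 was the highest of its group in every stage, and in stage III it reached 2202 CPM where the other 2 had 638.8 and 574.8 CPM. Plaur was lower under IL-33 in stage II by 5.6-fold (log2 -2.48, SE 0.59, adjusted p = 0.0112) and in stage III by 5.61-fold (log2 -2.49, SE 0.588, adjusted p = 0.00232), with no overlap in either stage. Without the 4 steady state libraries numbered 3, which were also the highest in Jun and Atf3, the differences were -1.66 in stage II (adjusted p = 0.00312) and -1.58 in stage III (adjusted p = 0.000726). With only the stage II library numbered 3 left out, stage II did not pass (log2 -1.55, adjusted p = 0.106), nor did it without the IL-33 library numbered 2 or 3 (adjusted p = 0.0581 and 0.0551). In stage IV the IL-33 libraries all lay above the steady state libraries (log2 1.43, SE 0.568), which did not pass with all libraries (adjusted p = 0.103) and passed without those 4 (log2 1.65, adjusted p = 0.00322), in a fit of the compared libraries only (adjusted p = 0.0201), with a replicate block (adjusted p = 0.0299) and with limma-voom (adjusted p = 0.00166). The part of the stress genes in the level of Plaur was not tested.

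Set side by side, more of the 8 genes passed between conditions in stage III than in any other stage, as was the case over all genes. Adam19, Serpinb2, Timp2 and Serpina3g each had a larger difference in another stage. Of all 12743 genes tested in stage III, 33.4% passed between IL-33 and steady state, 18.5% higher and 14.9% lower, and of the 8 genes 7 passed, with Serpina3g higher and Mmp9, Plaur, Serpinb2, Adam8, Adam19 and Timp2 lower. In stage I 4.06% of all genes passed, 2.71% higher and 1.36% lower, and 3 of the 8 genes were higher (Adam19, Serpinb2 and Serpina3g) and 0 lower. In stage II 8.03% of all genes passed, 4.06% higher and 3.97% lower, and Serpina3g and Adam19 were higher and Plaur lower. In stage IV 12.2% of all genes passed, 7.48% higher and 4.68% lower, and Serpinb2 and Timp2 were higher and 0 lower. Without 1 library the number of the 8 that passed was 1 or 2 in stages I and IV. The median log2 difference of the 8 genes was 0.93, 0.08, -1.57 and 0.89 in stages I to IV, and that of all genes tested 0.02, 0.06, 0 and -0.04. With library totals as the scaling, the median over all genes moved by -0.17, 0.27 and -0.11 on the log2 scale in stages I, III and IV. The share of passing genes that were higher under IL-33 was then 40.1%, 71.4% and 50% in those stages, against 66.6%, 55.4% and 61.5% with the scaling used here. Under that scaling none of the 8 genes changed direction, and 2 of them passed in stage I and 5 in stage III, where Serpina3g in stage I (adjusted p = 0.062) and Serpinb2 and Adam19 in stage III (adjusted p = 0.0598 and 0.141) no longer passed. Averaged over the stages, 38.1% of all genes passed, 21.4% higher and 16.7% lower, and 5 of the 8 passed. This average takes the 12 libraries of a condition as independent. Steady state libraries of the same number deviated together in stages I and IV (correlations 0.16 to 0.25). The SE and adjusted p of the average may therefore be too small. Serpina3g was 6.16-fold higher (log2 2.62, SE 0.341, adjusted p = 3.17e-06), Adam19 3.16-fold higher (log2 1.66, SE 0.232, adjusted p = 7.61e-06, a fitted value that takes in the 3 reads of stage I) and Timp2 1.43-fold higher (log2 0.52, SE 0.108, adjusted p = 0.00063). The Adam19 average rests mostly on stage I, as its fitted stage values were 5.89, 1.50, -0.97 and 0.21 in stages I to IV. Those of Timp2 were 0.47, 0.34, -0.90 and 2.16, so neither gene was higher in every stage. Mmp9 was 4.09-fold lower (log2 -2.03, SE 0.473, adjusted p = 0.00171; -2.96 without the stage I IL-33 library numbered 1) and Plaur 2.12-fold lower (log2 -1.08, SE 0.283, adjusted p = 0.00429), and the value for Plaur did not pass without the steady state libraries numbered 3 (log2 -0.36, adjusted p = 0.0848). Serpinb2 did not pass on average with all libraries. It passed without steady state library 3 of stage I, 3 of stage II or 1 of stage IV (adjusted p from 0.00649 to 0.0497), without the 4 libraries numbered 3 (log2 1.34, adjusted p = 0.000364), and with limma-voom (adjusted p = 0.0134). If the later-stage levels that led to this set were read in the steady state libraries alone, the comparisons between conditions share those libraries.

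Whether the difference between conditions itself changed from stage to stage was tested jointly over the 4 stages. It did for 17.8% of all genes tested and for 6 of the 8 genes, by edgeR's quasi-likelihood F test on 3 degrees of freedom. This test compares the changes along the stages between conditions, and Serpinb2, Mmp9 and Adam19 were picked for higher levels in later stages. Their results in it are therefore not independent of that choice. Timp2 (adjusted p = 8.71e-06) was lower under IL-33 in stage III and higher in stage IV. Adam19 (adjusted p = 1.23e-05) was higher under IL-33 in stages I and II and lower in stage III. Serpinb2 (adjusted p = 0.0016) and Adam8 (adjusted p = 0.00174) were each lower under IL-33 in stage III, with Serpinb2 higher in stages I and IV. Plaur (adjusted p = 0.0034) was lower under IL-33 in stages II and III (log2 -2.48 and -2.49), and its stage IV value of 1.43 did not pass. Mmp9 passed at an adjusted p of 0.0383. It did not in 13 of 31 alternative analyses, which were library totals as the scaling (adjusted p = 0.0624), limma-voom (adjusted p = 0.0636) and leaving out any of 11 of the 24 libraries (adjusted p from 0.0503 to 0.0954). Serpina3g (adjusted p = 0.0703) and Mmp25 (adjusted p = 0.0722) did not pass with all libraries, and did in 6 and 7 of 31 alternative analyses. Among these, Serpina3g passed without steady state library 1 of stage II or 1 or 2 of stage IV (adjusted p from 0.00409 to 0.043), and Mmp25 without steady state library 2 or 3 of stage I, 3 of stage III or IL-33 library 3 of stage I (adjusted p from 0.0306 to 0.0489).

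Markers of other cell types moved between the same groups. In stage III the summed level of the 16 neutrophil markers was 3235 to 4497 CPM under IL-33 and 20880 to 26010 CPM at steady state, and 14 of the 16 were lower under IL-33. For 17 monocyte and macrophage markers the sums were 1633 to 1947 CPM and 5363 to 5700 CPM, with 13 lower and 1 higher. In stage II 12 of the neutrophil markers and 11 of the monocyte and macrophage markers were lower under IL-33, against 1 and 2 in stage I and 4 and 3 in stage IV. Of all genes tested, 1.36%, 3.97%, 14.9% and 4.68% passed as lower in stages I to IV. As higher, 18.5% passed in stage III and 7.48% in stage IV. In bulk samples fewer cells of a type and less RNA per cell cannot be told apart. The IL-33 libraries numbered 1, where Mmp9 was highest in its group in every stage, also had the highest neutrophil marker sum of their group in every stage, at 8267, 4698, 4497 and 11820 CPM in stages I to IV. At steady state this held for library 3 of stage I only. In stage II Mmp9 was highest in library 3 and the sum in library 1. In stages III and IV library 2 had the highest Mmp9 (1040 and 1289 CPM) and the lowest sum (20880 and 10640 CPM). The defining marker Ly6g averaged 3.12, 2.8, 12.2 and 121 CPM in IL-33 stages I to IV and 6.33, 30.2, 69.5 and 24.3 CPM at steady state, and none of these means was at 0. Mmp9, Mmp25, Adam8 and Plaur are also expressed by neutrophils and monocytes, and the part of such cells in the levels of these genes was not tested. In stage IV the eosinophil markers were higher under IL-33, with a summed level of 18420 to 23860 CPM against 2909 to 3642 CPM at steady state, and 4 of 7 passed as higher and 1 as lower. The sums of 11 basophil and mast cell markers in stage IV were 2428 to 3619 CPM and 136.1 to 814.6 CPM, and 7 of the 9 tested were higher and 1 lower.

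**Figure D4:**
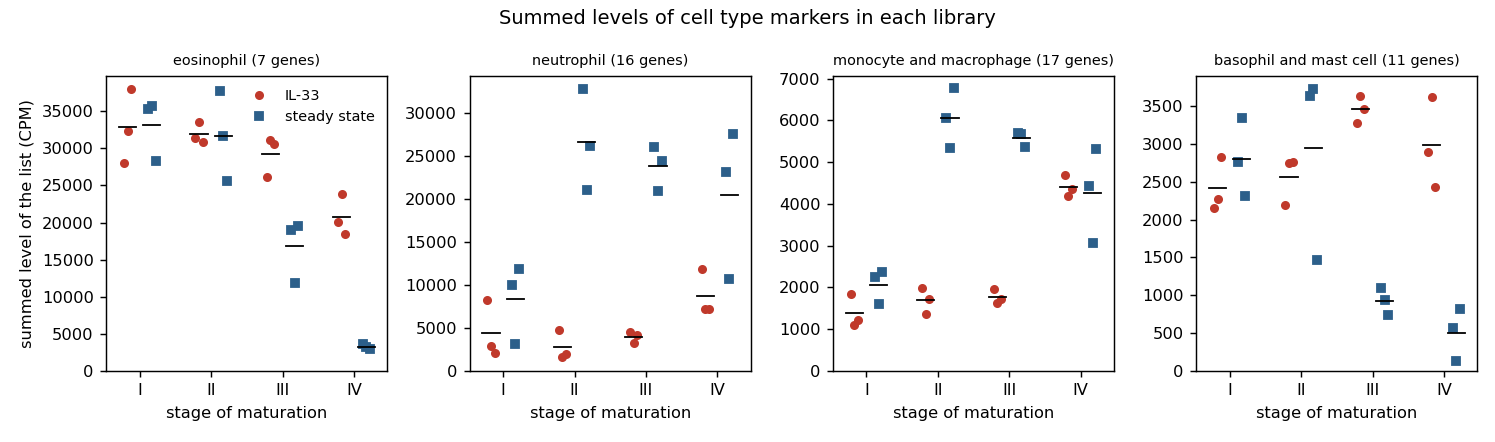
Summed CPM of the marker genes of 4 cell types in every library, with IL-33 libraries as circles, steady state libraries as squares and bars for the mean of 3. In stages II and III the neutrophil and the monocyte and macrophage sums of all IL-33 libraries lie below those of all steady state libraries.

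The wider families were then read from lists of genes other than these 8, in stage IV against stage I, a contrast in which 44.1% of all genes tested passed under IL-33 (21.2% higher, 22.9% lower) and 43.8% at steady state (21.1% higher, 22.7% lower). When library totals set the scale, the all-gene median of this contrast moved by -0.27 under IL-33 and by -0.34 at steady state (log2), and 36.9% and 34.4% of the passing genes were higher, against 48% and 48.2%. The fit behind the SE and adjusted p of this contrast did not pair libraries of the same number. At steady state such libraries deviated together in stages I and IV (correlations 0.16 to 0.25). Of 18 other Mmp genes 5 had enough counts, and 0 passed under IL-33 and 1, Mmp28, was lower at steady state (log2 -4.58, SE 1.28, adjusted p = 0.00602). Across alternatives the number of these Mmp genes that passed was 0 to 2 under IL-33 and 1 to 2 at steady state. Of 25 other Adam and Adamts genes 11 were tested, with 3 higher and 1 lower under IL-33 and 1 higher and 2 lower at steady state. Adam15 was higher in stage IV under IL-33, at 52.7 ± 16.8 CPM against 16.7 ± 6.99 CPM in stage I (log2 1.65, SE 0.419, adjusted p = 0.00255). Adamdec1, a protease of tissue macrophages, had 149 ± 66.4 CPM in stage IV at steady state and no read in stage I, and its mean in stage IV under IL-33 was 2.09 CPM. Of 32 other serpins 11 were tested, with 1 higher and 3 lower under IL-33 and 1 higher and 4 lower at steady state. Across alternatives 3 to 8 of these serpins passed under IL-33, 8 of them with limma-voom, and 4 to 7 at steady state. The higher one was Serpinb6a, an inhibitor of cathepsin G, in both: 137 ± 9.23 CPM in stage IV against 30.9 ± 5.03 CPM in stage I under IL-33 (log2 2.15, SE 0.221, adjusted p = 7.07e-08) and 72.9 ± 3.47 CPM against 31.8 ± 5.87 CPM at steady state (log2 1.20, SE 0.216, adjusted p = 0.000109). Serpine2, a thrombin and plasminogen activator inhibitor, was lower in both, by 4.25 on the log2 scale under IL-33 (SE 0.737, adjusted p = 6.13e-05) and by 4.77 at steady state (SE 0.741, adjusted p = 1.94e-05). The median log2 difference over the tested serpins was -1.39 under IL-33 and -1.11 at steady state, beside -0.03 in each for all genes.

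Among genes of the plasminogen system, 4 of 10 tested were higher in stage IV than in stage I in each condition and 0 lower by edgeR. Across alternatives 3 to 7 passed under IL-33, 7 of them with limma-voom, and 3 to 5 at steady state. S100a10 and Anxa2, which together form a plasminogen receptor at the cell surface, were among the 4 in each condition. S100a10 had 1020 ± 175 CPM in stage IV against 141 ± 57.4 CPM in stage I under IL-33 (log2 2.86, SE 0.262, adjusted p = 1.49e-08) and 1060 ± 147 CPM against 131 ± 23.1 CPM at steady state (log2 3.02, SE 0.263, adjusted p = 8.25e-09). Anxa2 was 1.92 higher on the log2 scale in stage IV under IL-33 (SE 0.224, adjusted p = 3.91e-07) and 2.15 higher at steady state (SE 0.226, adjusted p = 1.22e-07). Between conditions Anxa2 was higher under IL-33 in stage I (log2 1.38, SE 0.221, adjusted p = 0.000814), lower in stage III (log2 -1.25, SE 0.22, adjusted p = 0.000141) and higher in stage IV (log2 1.15, SE 0.219, adjusted p = 0.00105), the same directions as Serpinb2 in those stages. Itgam, the alpha chain of the integrin that pairs with Plaur on leukocytes, was higher in stage IV by 3.75 under IL-33 (SE 0.413, adjusted p = 1.8e-07) and by 2.34 at steady state (SE 0.389, adjusted p = 4.3e-05).

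Of 12 other protease inhibitors tested, 5 were higher and 1 lower in stage IV under IL-33, and 4 higher and 2 lower at steady state. Slpi, a secreted inhibitor of neutrophil elastase and cathepsin G, had 1380 ± 105 CPM in stage IV against 90.1 ± 17 CPM in stage I under IL-33 (log2 3.94, SE 0.279, adjusted p = 7.67e-10) and 1260 ± 235 CPM against 103 ± 31.5 CPM at steady state (log2 3.60, SE 0.274, adjusted p = 1.38e-09). Spint2, a membrane inhibitor of serine proteases, was lower in both (log2 -1.69, SE 0.28, adjusted p = 3.5e-05 under IL-33; log2 -2.83, SE 0.293, adjusted p = 9.51e-08 at steady state). In stage III Slpi was lower under IL-33 (log2 -1.97, SE 0.256, adjusted p = 5.2e-06), as Timp2 was, and Spint2 (log2 1.63, SE 0.281, adjusted p = 0.000115) and Cst7, an inhibitor of cathepsins (log2 1.21, SE 0.275, adjusted p = 0.00167), were higher. Of 21 serine, cysteine and other proteases tested, 6 were higher and 6 lower in stage IV under IL-33, and 7 higher and 5 lower at steady state. Ctsd, the lysosomal aspartic protease cathepsin D, had 3670 ± 370 CPM in stage IV against 498 ± 42 CPM in stage I under IL-33 (log2 2.88, SE 0.213, adjusted p = 1.16e-09) and 2560 ± 553 CPM against 416 ± 70.3 CPM at steady state (log2 2.62, SE 0.211, adjusted p = 2.96e-09). Furin, which activates many proproteins, Adam precursors among them, was 2.30 higher on the log2 scale under IL-33 than at steady state in stage IV (SE 0.397, adjusted p = 0.000383), at 507 ± 113 CPM against 103 ± 34 CPM. Prss57, a serine protease of granulocyte precursors, was lower in stage IV than in stage I by 3.71 under IL-33 (SE 0.454, adjusted p = 7.18e-07) and by 5.36 at steady state (SE 0.495, adjusted p = 1.84e-08).

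**Figure D5:**
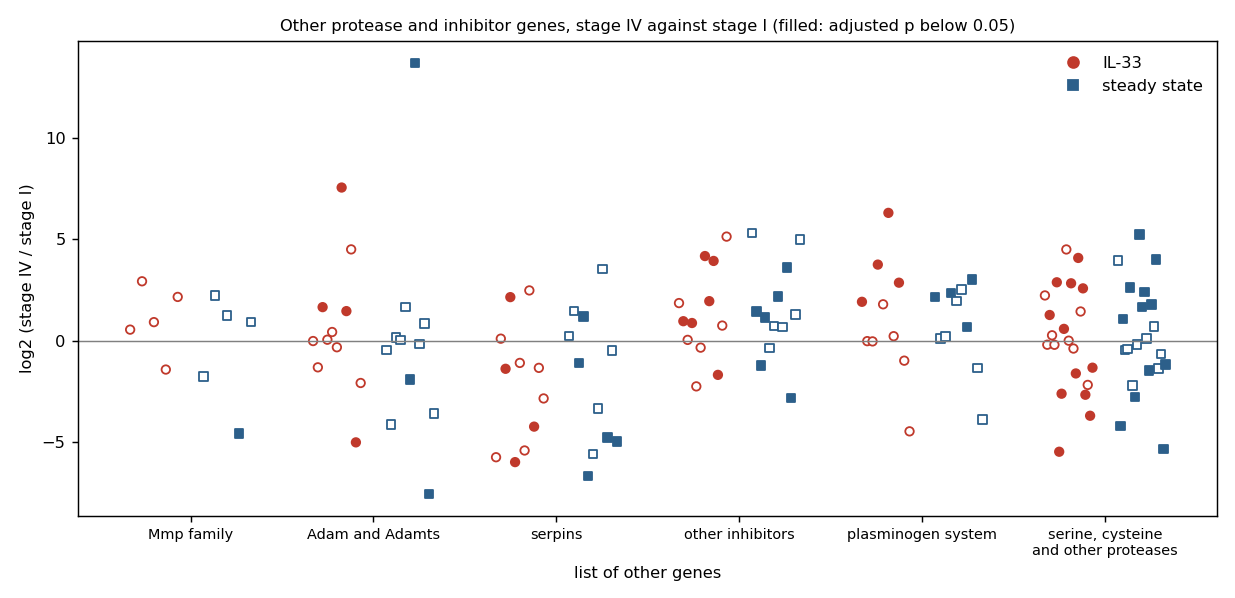
Log2 fold change of stage IV over stage I for the tested genes of 6 lists that leave out the 8 genes, with IL-33 as circles, steady state as squares and filled symbols for an adjusted p below 0.05. The highest steady state point is Adamdec1, which had no read in stage I, so its fitted value is not a bound.

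Finally, the genes whose levels ran most like each of the 8 were looked up over the 24 libraries, which share their stages and conditions, as a Pearson correlation of log2(CPM + 1) among 7109 genes. Adam8 was most like Padi4 (r = 0.981), an enzyme that citrullinates proteins and is itself on the neutrophil list, and Lilra6 (r = 0.98). Mmp25 was most like Myo1d (r = 0.97), followed by Lilra6 and Padi4 (r = 0.967 each), and among the 8 genes themselves the closest pair was Mmp25 and Adam8 (r = 0.966). Adam19 was most like Tesc (r = 0.979), Timp2 like Arl2bp (r = 0.97), Mmp9 like Antxr2 (r = 0.962), Serpinb2 like Glipr2 and Anxa2 (r = 0.96 each) and Plaur like Akirin1 (r = 0.948). Serpina3g was most like Mif (r = 0.93), and its correlation with each of the other 7 genes was negative, between -0.817 and -0.49. Within groups, after the group means had been taken out, r over the 24 libraries ran from -0.442 (Serpina3g and Timp2) to 0.797 (Mmp9 and Mmp25). Serpinb2 and Plaur had r = 0.784, Mmp25 and Adam8 r = 0.536, and Mmp25 and Timp2 r = -0.19. Libraries that stood apart enter these values. In IL-33 library 1 of stage I, Mmp9 and Mmp25 were 37.9 and 5.12 times the mean of the other 2. In steady state library 3 of stage II, Serpinb2 and Plaur were 5.24 and 3.71 times that mean.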

How the data were processed

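Messenger RNA was counted in 24 libraries of sorted mouse eosinophils, 3 in each of 8 groups of stage and condition. Cells were pooled from 3 mice per sample and libraries made with a SMART-Seq v4 and Nextera XT method, which does not mark strand, per the labels' protocols. STAR 2.6.1a, the build mm10 and DESeq2 are named in the submitters' processing notes; no source used here names the counting tool, its strand setting or the annotation. The authors deposited raw counts of reads per gene symbol, 24982 symbols per library. Reads with no feature (9.19% to 30.5% of counted reads) and ambiguous reads (1.73% to 2.6%) stayed out of library sizes and tests.

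Counts were fitted in R 4.3.3 with edgeR 4.0.16: its filter by group left 12743 symbols, TMM factors (trimmed mean of M values) scaled the libraries, and a single quasi-likelihood model of all 8 groups gave each test. P-values were adjusted by the method of Benjamini and Hochberg over the 12743 symbols and called at 0.05. An SE was computed as the absolute log2 fold change divided by the root of F. CPM values use the TMM factors; they are not divided by gene length and were not compared between genes. Replicates of a group differed by more than counting error (chi-square per degree of freedom 21 to 130), so the spread between libraries of a group set the precision. Counting intervals (95%, exact) cover counting error only. The model had no term for libraries of the same number in different stages. Replicate numbers did not pair libraries between conditions (correlations of deviations from the group means between -0.13 and 0.14). For stage IV against stage I they did at steady state (0.16 to 0.25) and not under IL-33 (0.0064 to 0.17), so the pairing there comes from the data.

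Members and gene lists were chosen with earlier results of these data known, and the list genes and tests were carried over from that work in part. From each list up to 4 genes with the smallest adjusted p in a comparison and a mean of at least 20 CPM in 1 group could be named, with 3 genes most like each member; Mmp28 was named after its value was seen. Gene positions are from GENCODE M21 on GRCm38, upstream sequences from RefSeq (GRCm38.p6). The script was tested on simulated data. The alternatives were DESeq2 1.42.0, limma-voom (limma 3.58.1), other scalings, no filter, a fit of the compared libraries only, a replicate block, leaving out the 4 steady state libraries numbered 3, and leaving out each library. Plots were made in Python 3.11.15 (matplotlib 3.10.9).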

Additional observations from a re-analysis of the deposited data

Results flagged for a closer look

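For 6 of the 8 genes the difference between IL-33 and steady state was not the same in the 4 stages, by the joint F test of edgeR adjusted over all genes tested, which 17.8% of all genes passed. Serpinb2, Mmp9 and Adam19 are among the 6 and were picked for their levels along the stages. Their adjusted p-values are therefore not independent of that choice. Timp2 (adjusted p = 8.71e-06) had log2 differences of 0.47, 0.34, -0.90 and 2.16 in stages I to IV. Adam19 (adjusted p = 1.23e-05) had 1.50, -0.97 and 0.21 in stages II to IV and a ratio of 66.5 against 3 reads in stage I. Serpinb2 (adjusted p = 0.0016) had 2.82, -0.67, -1.82 and 2.39. Adam8 (adjusted p = 0.00174) had 0.51, -0.06, -1.62 and 0.42. Plaur (adjusted p = 0.0034) had -0.79, -2.48, -2.49 and 1.43. Mmp9 (adjusted p = 0.0383) had 0.65, -2.72, -4.69 and -1.37, and its joint test did not pass in 13 of 31 alternative analyses, library totals as the scaling among them (adjusted p = 0.0624).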

How the results depend on the processing

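Of 944 values of single genes under alternatives, 844 kept their direction and their side of the threshold, 46 no longer passed, 39 newly passed and 15 changed sign, all 15 of them values that had not passed. The number of the 8 genes that passed was the same to within 1.5 times in 109 of 118 alternatives. The exceptions were in stage IV, where 2 passed with all libraries, 4 in a fit of the compared libraries only, 4 without the 4 steady state libraries numbered 3, 5 with limma-voom and 1 to 2 when 1 library was left out, and in stage I, where 3 passed with all libraries and 1 to 2 when 1 was left out. Without the steady state libraries numbered 3 the sign changed for Plaur in stage I (0.13), Serpinb2 in stage II (0.50) and Adam8 in stage II (0.18). With limma-voom it changed for Mmp9 in stage I (-0.74), Serpinb2 in stage II (0.088) and Adam8 in stage II (0.11). When 1 library was left out, the log2 difference ranged from -3.09 to 1.54 for Mmp9 in stage I, -1.20 to 0.18 for Plaur in stage I, -0.0471 to 1.96 for Mmp25 in stage I, -1.06 to 0.61 for Serpinb2 in stage II, -0.28 to 0.29 for Adam8 in stage II (0.0034 without IL-33 number 2), -0.0358 to 0.398 for Mmp25 in stage II and -0.0626 to 0.44 for its average. The replicate block changed the sign for Mmp9 in stage I (-0.00417); the numbers are shared labels between conditions, not pairs, and with the block 3, 4, 8 and 3 genes passed in stages I to IV, against 3, 3, 7 and 2 without it, and 7 against 6 in the joint test. Among all genes, 518 passed in stage I, against 109 to 880 with 1 library left out, 328 in a fit of the compared libraries only, 1052 with DESeq2 and 2536 with limma-voom. In stage II 1023 passed, against 381 to 1033, in stage IV 1550, against 802 to 1526 and 2693 with limma-voom, and in the joint test 2264, against 4233 with limma-voom. With library totals in place of TMM, mean levels stayed within 1 SD in 58 of 64 gene and group combinations. With 3 pools a group, differences near the threshold were not resolved. The cause of these changes was not tested.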
